A study of Rattus norvegicus with 6 samples.

Results

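Branched-chain amino acid catabolism was followed in the left ventricle of diabetic and normal rats through 10 genes: Bcat2, Bckdha, Bckdhb, Dbt, Bckdk, Ivd, Acadsb, Hibadh, Hibch and Aldh6a1. They were chosen by name from the array's platform annotation, which gave 11 probe sets (2 for Aldh6a1 and 1 for each other gene) of 15866 on the array that are not controls, and 10 genes of 10411 named. All 11 passed the filter for dim probe sets, as 9519 did in all. Total RNA came from 3 diabetic and 3 normal hearts, with 1 single-colour Affymetrix array for each animal. For neither group do the sources used here give the strain, sex, age or feeding state of the rats, nor how or for how long diabetes was produced. The comparison of the groups asks which heart transcripts differ in diabetes.

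Leucine, isoleucine and valine are first transaminated in mitochondria, in the heart mainly by Bcat2, to branched-chain keto acids. The branched-chain keto acid dehydrogenase complex (E1 subunits Bckdha and Bckdhb, E2 core Dbt, and the shared E3 subunit Dld) then decarboxylates these acids in the committed step. Bckdk, a kinase, switches the complex off by phosphorylating Bckdha, and the phosphatase Ppm1k switches it on. The branches then part, with Ivd acting on leucine, Acadsb on isoleucine, and Hibch, Hibadh and Aldh6a1 on valine, and the carbon leaves as acetyl-CoA, acetoacetate or propionyl-CoA.

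The 2 members that fell, Bcat2 and Ivd, are shown here by the 250 bases before the start that the RefSeq promoter table gives, since these lie directly upstream of the transcripts that changed. The sequences are RefSeq's on build GRCr8, both on the plus strand, from chr1:105178889-105179138 for Bcat2 and from chr3:126305334-126305583 for Ivd. Capitals mark CACCC, the box bound by Krüppel-like factors, and CCAAT, each on either strand (GGGTG and ATTGG on the other).
Bcat2: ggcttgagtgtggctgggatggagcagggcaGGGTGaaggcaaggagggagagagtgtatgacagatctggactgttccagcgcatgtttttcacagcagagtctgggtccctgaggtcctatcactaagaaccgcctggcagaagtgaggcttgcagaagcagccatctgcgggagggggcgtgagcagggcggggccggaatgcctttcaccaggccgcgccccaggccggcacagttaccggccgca
Ivd: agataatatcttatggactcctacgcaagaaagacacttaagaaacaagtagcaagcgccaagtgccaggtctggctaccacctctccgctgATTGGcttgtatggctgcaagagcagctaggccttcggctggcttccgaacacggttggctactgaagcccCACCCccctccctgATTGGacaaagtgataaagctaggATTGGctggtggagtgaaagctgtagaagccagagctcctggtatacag
Bcat2 held 1 such box, a GGGTG that begins 219 bases before the start, and no CCAAT. Ivd held a CACCC that begins 87 bases before the start and 3 ATTGG. RefSeq promoters were matched for 9 of the 10 members, all but Bckdha. CACCC was found in 9 of these 9, against 49.4% of 27457 rat promoters of the same length, and CCAAT in 5 of 9, against 34.3%; the boxes can overlap, as they do in Bckdhb. The GC content of the 9 members' promoters ran from 51.2% to 66.4%, with a median of 52% over all promoters, and its part in these shares was not tested. A match is a match of letters only.

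The diabetic ventricles held less transcript for the first enzyme of the pathway, Bcat2, and for the leucine enzyme Ivd, while none of the 10 genes rose. Bcat2 stood at 45.8% of its level in normal hearts and Ivd at 60.7% (ratios of mean signals, n = 3 per group). The E1 alpha subunit Bckdha, the core subunit Dbt and the valine enzyme Hibch were near their normal level. In all, 2 of the 11 probe sets fell and 0 rose by limma (adjusted p under 0.05, Benjamini-Hochberg, taken over all 9519 probe sets in the fit). Among those 9519, 2.88% changed, 1.38% downward and 1.5% upward. At an unadjusted p under 0.05, 5 were lower and 0 higher, where 10.3% of all tested probe sets were lower and 9.54% higher. At 5 of the 11, every diabetic array lay below every normal array, against 13.6% of tested probe sets, and at 0 every diabetic array lay above, against 12.1% (25.7% for either direction). The members were chosen with earlier results of these data known, so these shares describe the list and do not test it. The median log2 fold change (diabetic over normal, of signal + 16) was -0.39 over the 11 probe sets and -0.01 over all tested ones. The samples are bulk ventricle, in which fewer cells of a type and less RNA per cell cannot be told apart.

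**Figure D1:**
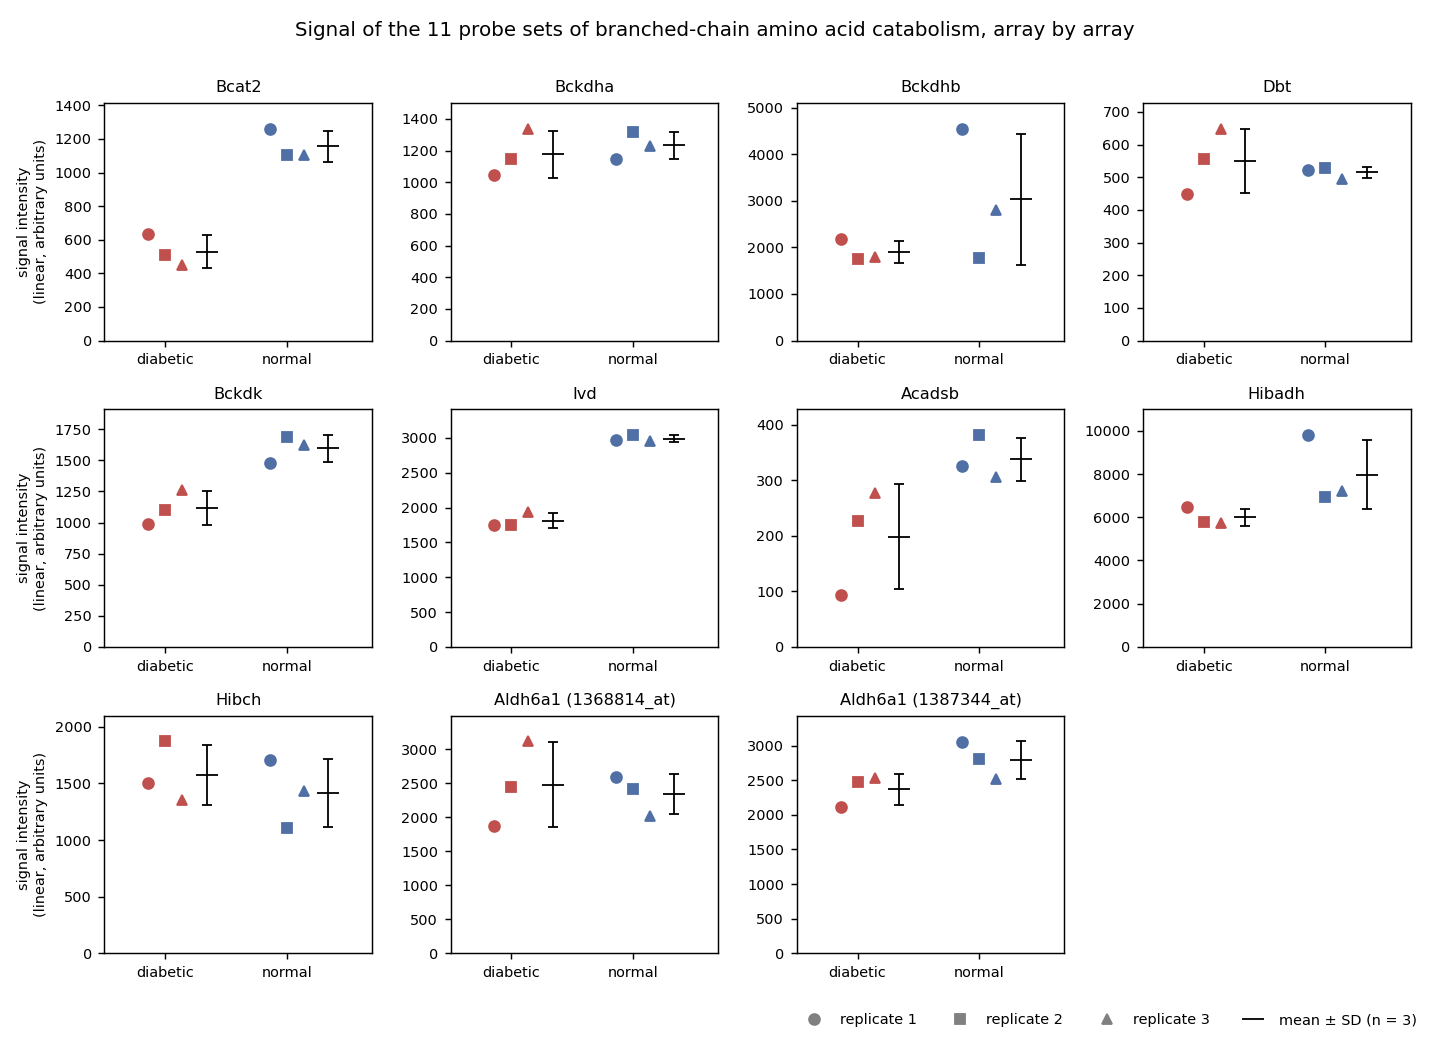
Signal intensity on a linear scale from 0 (arbitrary units) of each member probe set, with diabetic arrays in red at the left and normal arrays in blue at the right of each panel; markers are replicates and black bars are mean ± SD (n = 3). The groups are apart at Bcat2, Bckdk, Ivd, Acadsb and Hibadh, and overlap at the other 6 probe sets.

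Bcat2, the mitochondrial aminotransferase, had signals of 634.5, 506.9 and 447.1 in diabetic 1, 2 and 3, against 1261.5, 1103.5 and 1102.5 in normal 1, 2 and 3 (probe set 1386928_at). The brightest diabetic array was far below the dimmest normal one. The means were 529.5 ± 95.7 in diabetic and 1156 ± 91.5 in normal hearts (SD, n = 3 each), and the log2 fold change was -1.11 ± 0.17 (SE; adjusted p = 0.0122 by limma). The log2 fold change stayed between -1.25 and -1.004 with any 1 array left out, and the adjusted p was 0.0501 without diabetic 2 and 0.0898 without the filter for dim probe sets. Bcat1, the cytosolic form of the aminotransferase, lay below the filter at both of its probe sets, with 122.6 to 159.4 in diabetic and 32.1 to 124.8 in normal arrays at the brighter, and was not tested.

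The dehydrogenase complex itself did not pass the test at any subunit. Bckdha had 1045, 1144.3 and 1338.6 in diabetic hearts, against 1148.1, 1318.3 and 1230.8 in normal hearts. The groups overlapped, and the log2 fold change was -0.07 with a 95% interval of -0.42 to 0.27 (probe set 1370897_at). Dbt had 449.7, 554.5 and 646.8 in diabetic hearts, against 521.8, 528.1 and 494.1 in normal hearts (probe set 1373201_at). Its diabetic arrays lay on both sides of all 3 normal ones, at a log2 fold change of 0.08 (95% interval -0.29 to 0.45).

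Bckdhb, the E1 beta subunit, had 2176.2, 1758.6 and 1789.8 in diabetic hearts, against 4552.8, 1767.8 and 2793.3 in normal hearts (probe set 1370906_at). The normal hearts differed widely here, with coefficients of variation of 12.2% in diabetic and 46.4% in normal hearts, and normal 2 lay among the diabetic values. The log2 fold change was -0.57 ± 0.30 (limma adjusted p = 0.331) and -0.23 without normal 1. Dld, the E3 subunit that the pyruvate and oxoglutarate dehydrogenases also use, averaged 3805 ± 559 in diabetic and 4557 ± 320 in normal hearts, without overlap but short of the threshold (log2 fold change -0.27, adjusted p = 0.399).

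Both enzymes that set the activity of the complex had all diabetic arrays below all normal ones, as had 13.6% of all tested probe sets, but neither passed the test. Bckdk had 988.1, 1098.7 and 1265.2 in diabetic hearts, against 1478.2, 1690.7 and 1620.6 in normal hearts (probe set 1370842_at). That is 70.0% of the normal mean, with -0.51 ± 0.15 on the log2 scale (95% interval -0.86 to -0.17, limma adjusted p = 0.106). It was the member closest to the threshold among those that missed it, and it missed it under every alternative tried, with adjusted p from 0.0509 to 0.289. Ppm1k averaged 1468.5 ± 116 in diabetic and 1944 ± 410.5 in normal hearts (log2 fold change -0.38, adjusted p = 0.272, and -0.22 on the log2 scale without normal 3). Bckdk and Ppm1k act on the complex in opposite directions, and the array measures their transcripts only.

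In the leucine branch, Ivd (isovaleryl-CoA dehydrogenase) fell. It had 1751.1, 1749.1 and 1941 in diabetic hearts, against 2976, 3043.6 and 2951.1 in normal hearts (probe set 1370232_at). Both groups were tight, with coefficients of variation of 6.08% in diabetic and 1.60% in normal hearts, and lay well apart. The means were 1814 ± 110.2 and 2990.2 ± 47.9 in diabetic and normal hearts (SD, n = 3 each), and the log2 fold change was -0.72 ± 0.14 (adjusted p = 0.0285 by limma). With any 1 array left out the log2 fold change stayed between -0.77 and -0.69, but the adjusted p was then 0.0619 to 0.0972, so the call was lost whichever array was dropped, and the adjusted p was 0.136 without the filter for dim probe sets. The later leucine enzymes, named here after their values were seen, did not pass: Mccc1 was at -0.10 and Mccc2 at -0.35 on the log2 scale, the subunits of methylcrotonyl-CoA carboxylase, and Auh, the next hydratase, at -0.12. At Mccc2 every diabetic array lay below every normal one (limma adjusted p = 0.245), as at 13.6% of all tested probe sets. The groups overlapped at Mccc1 and Auh.

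In the isoleucine branch, Acadsb (short/branched-chain acyl-CoA dehydrogenase) had 92.7, 226.5 and 276.6 in diabetic hearts, against 325.7, 381.8 and 306.2 in normal hearts (probe set 1369526_at). All diabetic arrays lay below all normal ones, with diabetic 1 far below the others. On the log2 scale the difference of -0.84 ± 0.33 (adjusted p = 0.198 by limma) became -0.40 without diabetic 1. Its mean level placed it at percentile 57.0 of the array's probe sets, the lowest of the members. Hsd17b10 and Acat1, which act later on isoleucine and were named after their values were seen, were at 0.01 and 0.06 on the log2 scale, with groups that overlapped.

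In the valine branch no member passed. Hibadh, the 3-hydroxyisobutyrate dehydrogenase, had 6453.6, 5798.9 and 5753.9 in diabetic hearts, against 9810.1, 6927 and 7198 in normal hearts (probe set 1388118_at). The groups did not overlap, and normal 1 stood above the other normal hearts. The log2 fold change was -0.39 ± 0.17 (limma adjusted p = 0.245), and -0.24 without normal 1.

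Hibch, the hydrolase just before Hibadh, had 1505.4, 1872.1 and 1356.4 in diabetic hearts, against 1705.2, 1103.2 and 1435.5 in normal hearts (probe set 1373564_at). The groups overlapped, at a log2 fold change of 0.17 (95% interval -0.29 to 0.62). The 2 probe sets of Aldh6a1, methylmalonate semialdehyde dehydrogenase, gave opposite signs, although the annotation ties both to the same sequence record. At 1368814_at the signals were 1870.7, 2447.4 and 3120.4 in diabetic hearts, against 2594.9, 2422.3 and 2026.8 in normal hearts, a log2 fold change of 0.05 (95% interval -0.41 to 0.52). At 1387344_at they were 2107.7, 2470.5 and 2525.5 in diabetic hearts, against 3055, 2804.1 and 2516.4 in normal hearts, a log2 fold change of -0.24 (95% interval -0.58 to 0.11). The groups overlapped at both, by the narrowest margin at 1387344_at.

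**Figure D2:**
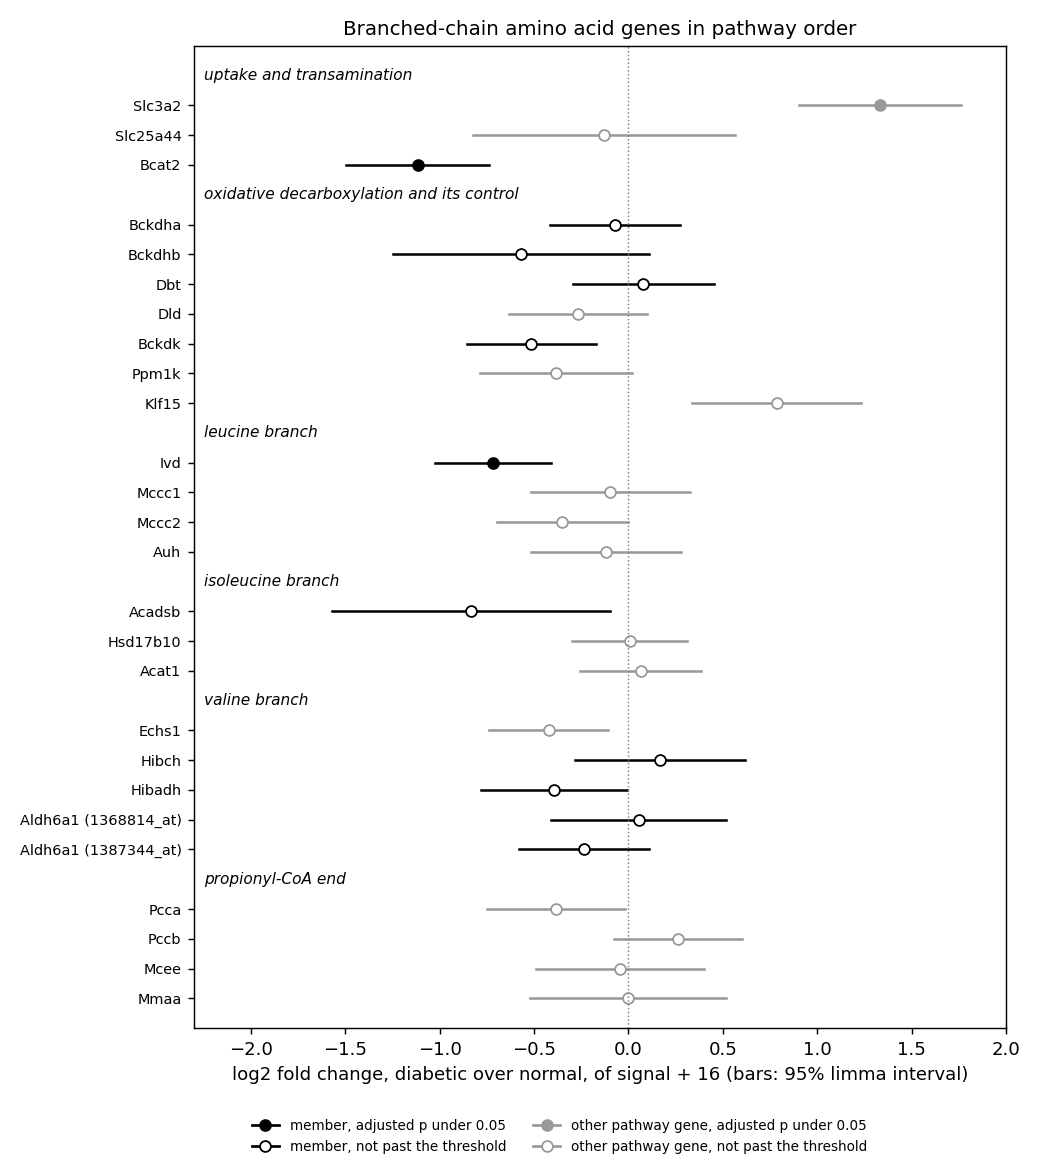
Log2 fold change of diabetic over normal (signal + 16) with its 95% limma interval for each tested probe set of the pathway, from uptake at the top to the propionyl-CoA end; members are black, other pathway genes grey, and filled points passed the adjusted threshold. Bcat2 (-1.11) and Ivd (-0.72) are the filled points below 0, and Slc3a2 (1.33) is the filled point above it.

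Of 23 other genes of the pathway, 19 were on the array and 15 were tested, with 1 risen and 0 fallen (2 higher and 3 lower at an unadjusted p under 0.05, which 9.54% and 10.3% of all tested probe sets reached) and a median log2 fold change of -0.10. The gene that rose was Slc3a2, the heavy chain that carries the branched-chain amino acid importers Slc7a5 and Slc7a8 to the cell surface. Slc3a2 had 2821.5, 2537.5 and 2030.9 in diabetic hearts, against 1158.6, 962.6 and 792.8 in normal hearts. Every diabetic array was well above every normal one, and the mean was 2.54-fold higher in diabetic hearts. The log2 fold change was 1.33 ± 0.19 (limma adjusted p = 0.0101), and it passed with any 1 array left out (1.20 to 1.47, adjusted p at most 0.0430). Without the filter for dim probe sets it did not pass (adjusted p = 0.0837).

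The importers Slc7a5 and Slc7a8 were dim and lay below the filter, so they were not tested. Both are named after their values were seen. Slc7a8 had 230, 109.3 and 113.7 in diabetic hearts, against 22.7, 44.2 and 25.1 in normal hearts. The groups did not overlap, and in the fit without a filter the log2 fold change was 1.79 (limma adjusted p = 0.105). Slc7a5 had 70.5 to 89.5 in diabetic and 44.8 to 72.5 in normal hearts, with overlap.

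Klf15, a transcription factor that in mice activates genes of branched-chain amino acid breakdown in muscle and heart, had 1942.9, 1955.3 and 1748.7 in diabetic hearts, against 931.5, 930 and 1468.7 in normal hearts. The diabetic arrays were all higher, and normal 3 lay between the other normal arrays and the diabetic ones. The log2 fold change was 0.79 ± 0.20 and did not pass (limma adjusted p = 0.0722). Without normal 3 it was 1.00 (adjusted p = 0.0315).

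**Figure D3:**
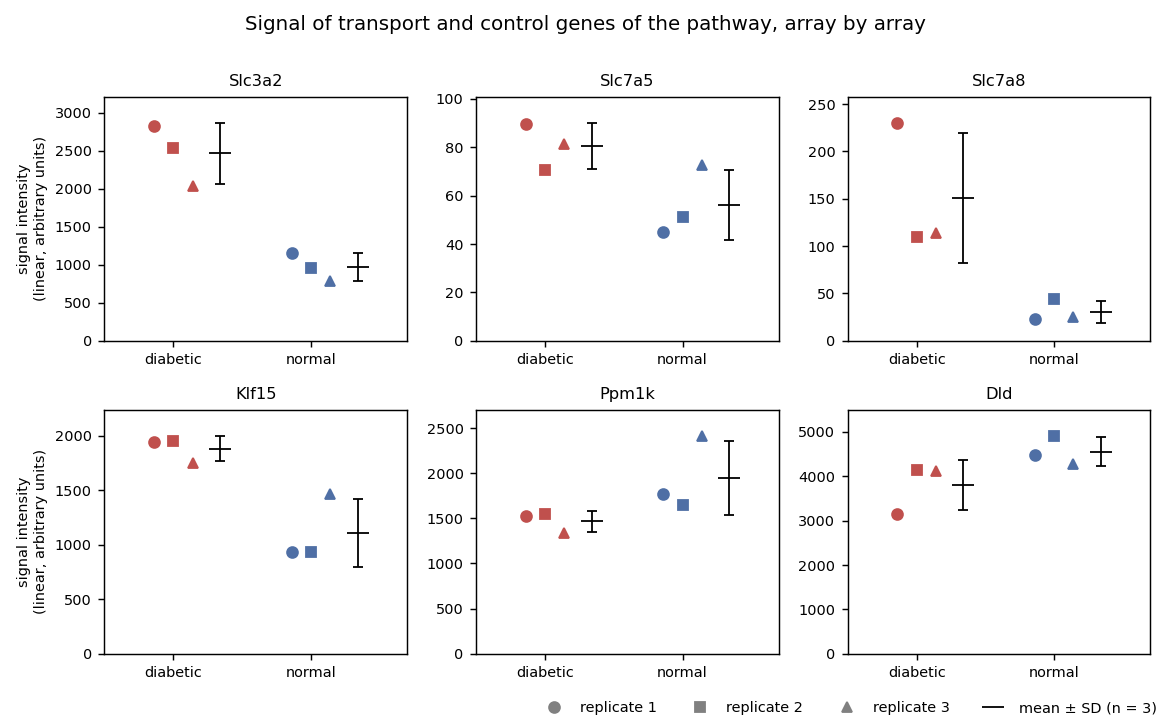
Signal intensity on a linear scale from 0 (arbitrary units) of genes for import (Slc3a2, Slc7a5, Slc7a8) and control or shared function (Klf15, Ppm1k, Dld), diabetic at the left and normal at the right of each panel, with mean ± SD (n = 3). Slc3a2 lies between 2030.9 and 2821.5 in diabetic arrays and between 792.8 and 1158.6 in normal arrays; Slc7a5 and Slc7a8 lay below the filter and were not tested.

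Other mitochondrial fuel genes are given for comparison, each gene by its brightest tested probe set; the difference between lists was not tested. The members had a median log2 fold change of -0.45 over 10 genes, with 8 below 0. Of 11 genes of mitochondrial beta-oxidation, 3 rose (Hadha, Eci1 and Decr1) and 0 fell, with a median of 0.43 and all 11 above 0. At an unadjusted p under 0.05, 6 were higher and 0 lower. Among all tested probe sets 1.5% rose and 1.38% fell, while 9.54% were higher and 10.3% lower at an unadjusted p under 0.05. The pyruvate dehydrogenase complex is built like the branched-chain complex and is likewise switched by kinases and phosphatases. Its list of 8 tested genes mixes subunits (Pdha1, Pdhb and Pdhx) with kinases (Pdk1, Pdk2 and Pdk4) and phosphatases (Pdp1 and Pdp2). Of these 8 genes 0 passed, and the median was -0.04. At an unadjusted p under 0.05, 1 was higher, the kinase Pdk4, and 1 lower, the phosphatase Pdp2. Pdk4 varied widely in normal hearts, at 8462.3, 9237.4 and 1641.8. The dimmer probe sets of the kinases Pdk1 and Pdk2 were also higher at that level (log2 fold changes of 0.39 and 0.41), while their brightest were not (0.21 and 0.15). The median therefore does not describe the subunits alone, which were at -0.08 (Pdha1), -0.21 (Pdhb) and -0.14 (Pdhx). Of 15 TCA cycle genes 0 passed by limma (1 lower at an unadjusted p under 0.05), with a median of -0.15.

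The named genes with the profile nearest to Bcat2 over the 6 arrays were Dmpk, Col6a3 and S1pr3, with root mean square distances of 0.0996, 0.122 and 0.127 on the log2 scale. Those nearest to Ivd were Col6a1, Vtn and Serpinb9, at 0.0750, 0.0760 and 0.0805. Profiles were set against the mean of the normal arrays, and these names describe likeness only.

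**Figure D4:**
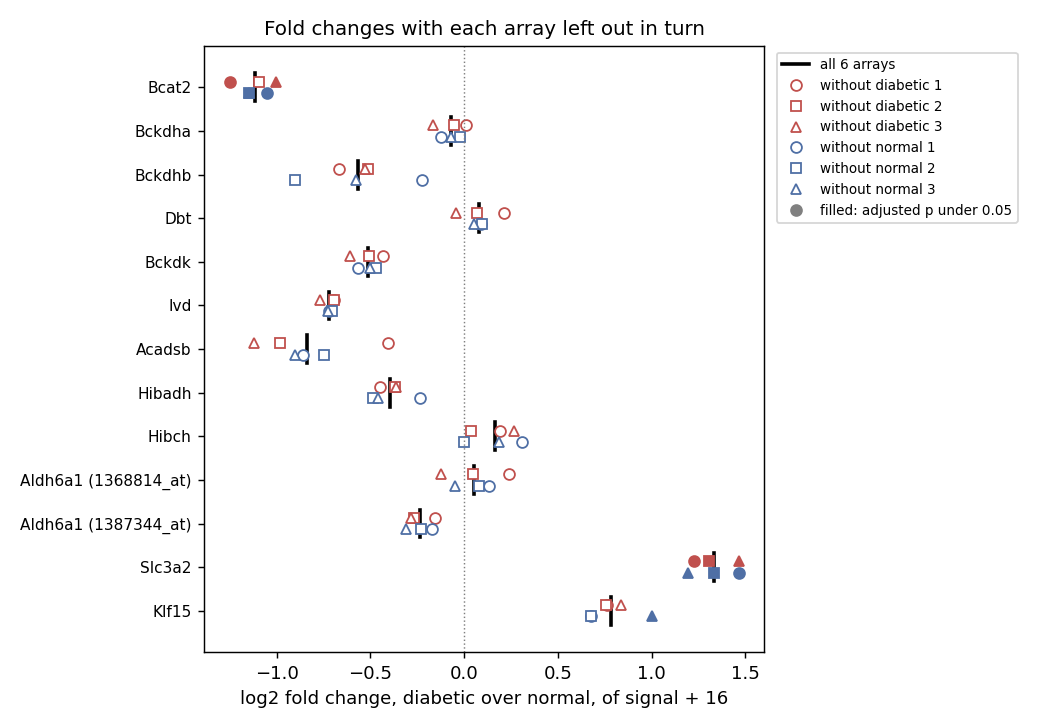
Log2 fold change of diabetic over normal (signal + 16) for each member probe set, Slc3a2 and Klf15 with each array left out in turn; the black bar is the value from all 6 arrays, red symbols leave out a diabetic and blue ones a normal array, and filled symbols passed the adjusted threshold. Bcat2 runs from -1.25 to -1.004 and Ivd from -0.77 to -0.69, while Bckdhb reaches -0.23 without normal 1 and Acadsb -0.40 without diabetic 1.

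The arrays correlated at r = 0.967 to 0.974 within groups and at 0.937 to 0.959 between groups across tested probe sets, which are not independent replicates. The 3'/5' signal ratio of the Gapdh control ran from 1.25 to 1.41 in diabetic and from 1.18 to 1.34 in normal arrays, and that of beta-actin from 1.23 to 1.61 in diabetic and from 1.25 to 1.84 in normal arrays. Ventricular cardiomyocyte markers were bright, at a summed signal of 171128 to 228025 in diabetic and 188651 to 234767 in normal arrays (7 of 8 on the array). By limma 0 of these 7 changed, and 1 was lower at an unadjusted p under 0.05, where 10.3% of all tested probe sets were lower. Of 7 fibroblast markers, 4 fell (Col1a1, Col1a2, Col3a1 and Lum), at 6 of 9 probe sets, where 1.38% of all tested probe sets fell. The groups overlapped at Pdgfra, Tcf21 and Dcn, with log2 fold changes of -0.24, -0.29 and -0.01, and these did not pass. Dcn, the brightest of the markers, averaged 14186 in diabetic and 14343 in normal hearts. The summed signal of the 7 markers was 20687 to 21966 in diabetic and 32257 to 37086 in normal arrays. Their part in the result was not tested. Adipocyte markers summed to 253 to 298 in diabetic and 212 to 266 in normal arrays, with Plin1 and Lep below the filter and 0 of the 1 tested marker (Cfd) changed.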

How the data were processed

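The deposited table holds 1 linear signal intensity per probe set and array for 3 diabetic and 3 normal hearts. The sources used here name neither the software nor the normalization behind it, and the labels describe only the maker's standard steps. The mean after trimming 2% from each end was 500.2 on each array, so the intensities had been scaled before they were deposited, and they were used as they stand. The number of arrays limits the precision.

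Members and gene lists were chosen with earlier results of these data known. Names came from the platform annotation, updated through a RefSeq gene table (GRCr8): 12748 of 12783 single-gene probe sets matched by gene number. Values became log2(signal + 16), which understates changes of dim genes. Probe sets whose mean log2 value over all 6 arrays exceeded the 40th percentile of the 15866 were tested with limma 3.58.1 (R 4.3.3; lmFit and eBayes, group only, two-sided). Intervals are limma's and are not adjusted. An exact permutation test of 3 against 3 arrays has a smallest p of 0.1, so calls depend on the model's shared spread. On simulated data of 9519 probe sets the fit recovered 6% of planted log2 changes of 0.5, 50% of 1, 94% of 2 and 100% of 3, with 3 false among 128 calls.

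All 10 members are reported at every probe set. Other pathway genes are named if they passed, with Bcat1, Dld, Ppm1k and Klf15 in any case, and others are said to be named after their values were seen. The 3 nearest profiles are given per member that passed. Each array was left out in turn, and the other alternatives were no filter, the 60th percentile, a replicate block, array weights, a robust prior, an intensity trend, pseudocounts of 64 and 1, median and quantile scaling, and a threshold of 0.1. A filter on linear means was added after seeing the data. Figures used matplotlib 3.10.9.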

Additional observations from a re-analysis of the deposited data

How the results depend on the processing

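The filter for dim probe sets decided the calls. Without it 0 of the 11 member probe sets passed by limma (3 lower at an unadjusted p under 0.05), with adjusted p of 0.0898 for Bcat2 and 0.136 for Ivd, and 0 of the other pathway genes (4 higher and 1 lower at an unadjusted p under 0.05), with 0.0837 for Slc3a2. Of all 15866 probe sets, 975 were lower and 1018 higher at an unadjusted p under 0.05 in that fit. Over all probe sets 18 changed without the filter, against 274 with it, 437 at the 60th percentile, 527 with an intensity trend and 674 at a threshold of 0.1. Bcat2 and Ivd passed under both pseudocounts, both scalings, the 60th percentile, the intensity trend, the robust prior, array weights and the threshold of 0.1. They also passed with a filter on linear means, an alternative chosen after seeing the data. With 1 array left out, 99 to 202 probe sets changed in all (99 without diabetic 2, 135 without diabetic 3, 134 without normal 2, 110 without normal 3). Of the member probe sets 0 to 1 changed. It was 0 without diabetic 2, where 4 members were lower at an unadjusted p under 0.05, as were 792 of all 9519 probe sets. Of the other pathway genes 1 to 2 changed. The second of these was Klf15, which also passed, making 2, with a pseudocount of 64, at the 60th percentile, with an intensity trend and at a threshold of 0.1. With the replicate number as a block 183 probe sets changed in all and 1 member, Bcat2 (adjusted p = 0.0231), while Ivd was at 0.0672. The deviations of same-numbered arrays correlated at 0.0655, 0.0142 and 0.0158, and diabetic 3 correlated best with normal 2 (0.0686). Deviations from a mean of 3 arrays are not independent, so these values cannot show whether same-numbered arrays were handled together. The labels give only a number. Members near 0 changed sign with an array left out: Bckdha ranged from -0.17 to 0.0083, Dbt from -0.041 to 0.21, Hibch from -0.00080 to 0.31 and Aldh6a1 at 1368814_at from -0.13 to 0.24, with -0.047 without normal 3. No member changed sign under the other alternatives. In the simulation 6% of planted log2 changes of 0.5 were called. It gave 128 calls, against 274 in the data, so its threshold differs and why Bckdk missed was not tested.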

Other observations

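Echs1, the enoyl-CoA hydratase shared by the valine and isoleucine branches, was picked after its values were seen. It had signals of 3216, 2831.9 and 2694.9 in diabetic hearts, against 3901.2, 3901.5 and 3902.1 in normal hearts. The normal arrays were almost equal, and every diabetic array lay below them, but the log2 fold change of -0.42 ± 0.14 did not pass (limma adjusted p = 0.140). The subunits of propionyl-CoA carboxylase, which takes up the end product of valine and isoleucine, had opposite signs, also seen first in the values. Pcca averaged 2100.0 ± 118 in diabetic and 2768 ± 454 in normal hearts, and Pccb 2903 ± 306 in diabetic and 2415 ± 203 in normal hearts (SD, n = 3 each). The groups did not overlap at either gene, as at 25.7% of all tested probe sets in either direction. Neither passed (limma adjusted p = 0.225 for Pcca and 0.374 for Pccb).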
